A study of Homo sapiens with 52 samples.

Results

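The RNA levels of 8 enzymes of serine, glycine and one-carbon metabolism (PHGDH, PSAT1, PSPH, SHMT1, SHMT2, GLDC, MTHFD1 and MTHFD2) were followed in human embryonic stem cells. The genes were chosen by symbol, with earlier results of these data known. Every probe set that the array annotation assigns to 1 of these symbols alone was taken. This gave 16 probe sets of the 34503 that name a single gene (17518 genes). Of these 16, 13 reached a present call on 2 or more arrays of their chip and were tested, among 21445 probe sets tested in all. The cells were of the line H1, untreated (day 0) or differentiated in 5 µM retinoic acid for 1 to 10 days, and of the lines H9 and HUES8, undifferentiated controls without retinoic acid. All 3 are established lines grown without feeder cells in mTeSR medium on Matrigel. Each of the 13 groups (11 H1 days, H9 and HUES8) had 2 replicates that the labels call biological, without naming the culture each came from, and each replicate was hybridised to both chips of the HG-U133 pair, named A and B, so 26 samples gave 52 arrays. No H1 culture without retinoic acid was sampled on days 1 to 10, so retinoic acid and time in culture cannot be told apart.

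PHGDH, PSAT1 and PSPH catalyse, in that order, the steps that turn a glycolytic intermediate into serine. SHMT1 in the cytosol and SHMT2 in mitochondria split serine into glycine and a one-carbon unit carried by folate, GLDC is the decarboxylase of the glycine cleavage system, which takes a one-carbon unit from glycine in mitochondria, and MTHFD2 (mitochondrial) and MTHFD1 (cytosolic) interconvert the folate-bound units. These units feed purine, thymidylate and methionine synthesis, and several of the genes are known targets of the transcription factor ATF4 in the response to amino acid shortage.

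Over 10 days in retinoic acid, PSAT1, GLDC and MTHFD2 fell by 2.92- to 4.32-fold on their A-chip probe sets, MTHFD1 first rose and then fell, SHMT2 fell by 1.72- and 2.20-fold on 2 of its 3 probe sets, PHGDH had a shallow downward slope and no called day 10 difference, and the main PSPH probe set stayed between 1293 and 2366 on all 22 H1 arrays. SHMT1 had a present call on 1 array only. Between undifferentiated lines, GLDC, MTHFD1, MTHFD2, PHGDH and PSAT1 passed no test, while a PSPH probe set was lower in H9 and HUES8 than in H1 and an SHMT2 probe set was higher in H9.

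The promoters of 4 members are shown because their RNA took different courses under the same treatment: 3 that fell by day 10 and PHGDH, whose day 10 difference did not pass. Each is 300 bases long, from 250 before to 50 after the transcription start, from RefSeq on GRCh38.p14. Capitals mark matches on either strand to the CCAAT box (CCAAT), the GC box (GGGCGG) and the E-box (CACGTG). PHGDH lies at chr1:119711684-119711983 on the plus strand, PSAT1 at chr9:78296875-78297174 on the plus strand, GLDC at chr9:6645680-6645979 on the minus strand and MTHFD1 at chr14:64388103-64388402 on the plus strand.
PHGDH: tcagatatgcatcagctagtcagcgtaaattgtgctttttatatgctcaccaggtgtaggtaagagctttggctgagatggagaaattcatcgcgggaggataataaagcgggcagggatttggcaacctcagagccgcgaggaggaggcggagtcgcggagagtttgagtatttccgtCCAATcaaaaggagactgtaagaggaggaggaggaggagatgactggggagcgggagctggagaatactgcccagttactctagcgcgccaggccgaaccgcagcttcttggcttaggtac
PSAT1: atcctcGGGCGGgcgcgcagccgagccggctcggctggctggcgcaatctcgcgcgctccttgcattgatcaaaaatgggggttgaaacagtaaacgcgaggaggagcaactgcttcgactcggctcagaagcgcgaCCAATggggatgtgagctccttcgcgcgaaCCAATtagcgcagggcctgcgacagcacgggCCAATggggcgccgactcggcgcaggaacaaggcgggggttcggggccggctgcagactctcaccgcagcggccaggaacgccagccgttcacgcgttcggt
GLDC: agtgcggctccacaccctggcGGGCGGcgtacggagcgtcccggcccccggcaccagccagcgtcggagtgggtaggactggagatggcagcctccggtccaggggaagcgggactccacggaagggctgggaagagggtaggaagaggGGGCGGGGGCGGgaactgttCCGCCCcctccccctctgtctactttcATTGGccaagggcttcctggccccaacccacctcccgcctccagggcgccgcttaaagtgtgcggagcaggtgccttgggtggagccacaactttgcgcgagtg
MTHFD1: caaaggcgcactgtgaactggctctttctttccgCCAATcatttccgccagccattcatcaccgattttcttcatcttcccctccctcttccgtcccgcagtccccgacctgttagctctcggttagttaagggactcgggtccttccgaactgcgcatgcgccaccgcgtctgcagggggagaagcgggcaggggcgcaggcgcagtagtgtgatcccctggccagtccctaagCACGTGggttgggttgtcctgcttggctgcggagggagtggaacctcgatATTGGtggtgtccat
Promoters were matched by symbol for 6 of the 8 members, all but PSPH and SHMT2. A CCAAT box lay in all 6, against 34.61% of 35116 RefSeq promoters of the same length, and PSAT1 held 3 copies of it. The GC box lay in 3 (GLDC, PSAT1 and SHMT1), against 44.95% of all promoters. The E-box lay in 1, that of MTHFD1, starting 15 bases before the start site, against 7.256% of all. The core of the composite site bound by ATF4 with a C/EBP partner, TGATGCAA, was in none of the 6 windows (0.8657% of all promoters), nor with the sixth base left free, TGATGNAA (3.617%). A direct repeat spaced by 5 bases, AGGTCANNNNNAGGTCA, a form of retinoic acid response element, was in none of the 6 either (0.005695%). TGATGCAA is itself 1 form of TGATGNAA, no other matches share a base in these promoters, and a match is a string of letters, not a binding site.

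Signal is the authors' MAS5 intensity on a linear scale, with every array scaled to a common mean. A probe set was called present on an array at a detection p under 0.05, which held for 44.8 to 54.2% of probe sets per A array and 31.1 to 40.1% per B array. Changes are differences of group means of log2 signal from limma, given with their SE and n = 2 per group, with two-sided p-values adjusted over all 21445 probe sets (Benjamini-Hochberg), and a call means an adjusted p under 0.05. The level of a probe set is not set against that of another, since probes differ in affinity. In these bulk samples fewer expressing cells and less RNA per cell cannot be told apart. The stem cell label of day 0 was checked against 10 markers of pluripotent cells, of which 8 were tested: each of the 8 had a present call in H1 day 0, H9 and HUES8. Their summed signal was 69550 to 70045 at day 0, 70530 to 76992 in H9, 62764 to 74585 in HUES8 and 16096 to 17330 at day 10.

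All member comparisons by day share the day 0 arrays. The members were chosen with earlier results known, so their shares beside the background, here and below, are descriptions and no independent support. Of the 13 member probe sets, 9 varied over the 11 H1 days by the F test, against 23.3% of all tested probe sets. The linear slope over days 0 to 10 was called for 10, all downward, where 18.7% of all tested probe sets had a called downward slope and 41.0% a called slope of either sign. The median slope was -0.12 log2 per day over the 13 and 0.0041 over all. Against day 0, limma called no member on day 1 (1 of 13 at an unadjusted p under 0.05, background 0.979% called), day 3 (1, 4.27%), day 4 (3, 6.43%) or day 5 (4, 8.73%). On day 2, 1 was called higher, against 1.87% of all. The lower calls began on day 6 with 6 of 13 (background 5.15%), followed by 6 on day 7 (5.79%), 7 on day 8 (5.75%), 8 on day 9 (8.01%) and 8 on day 10 (10.4%). The 8 probe sets called on day 10 belonged to 5 genes (PSAT1, GLDC, MTHFD1, MTHFD2 and SHMT2), and no member was called higher on days 6 to 10. The median change at day 10 was -1.09 over the 13 members and 0.03 over all tested probe sets. Without replicate 2 of day 0, 1 probe set was called on day 6, 2 on day 7 and 4 on day 9. Without replicate 1 of day 0, day 3 had 1 call and day 5 had 2. Leaving out 1 sample of the treated day gave 0 (without replicate 1) or 2 (without replicate 2) on day 6, 3 on day 7 without replicate 1, and 4 or 5 on day 9.

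**Figure D1:**
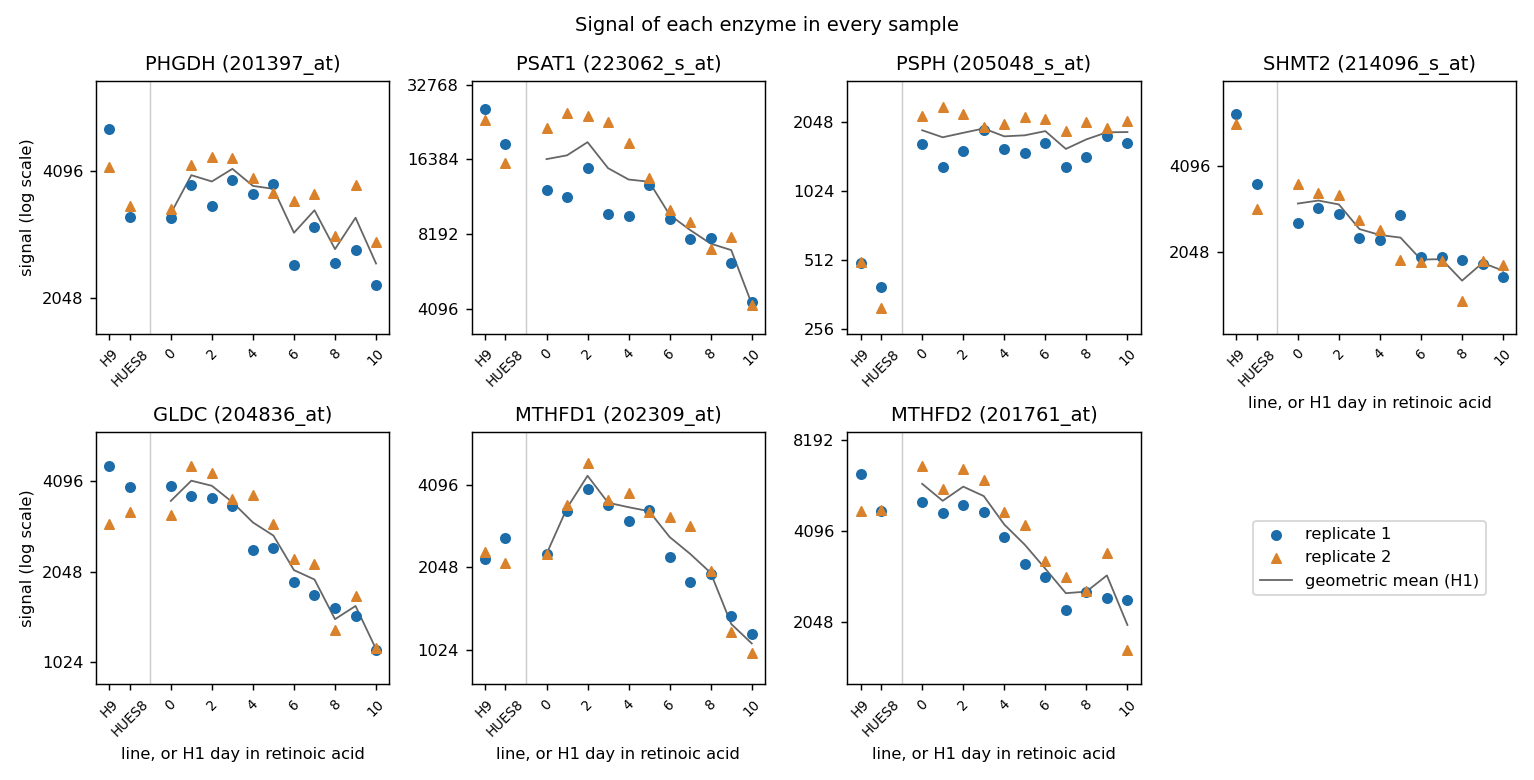
MAS5 signal (log scale, arbitrary units) of the main probe set of 7 enzymes in each sample, with H9 and HUES8 left of the line and the H1 days right of it. Circles are replicate 1, triangles replicate 2 and the line the geometric mean of the 2 H1 replicates. PSAT1, GLDC and MTHFD2 slope downward, MTHFD1 peaks on day 2, and PSPH is level in H1 but low in H9 and HUES8.

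PHGDH, the first and committed enzyme of serine synthesis, was present on all 26 arrays. Its signal was 3161 and 3335 at day 0 and between 3387 and 4407 on days 1 to 4. It was 3804 and 3621 on day 5 and 2196 and 2786 on day 10. Both day 10 samples lay below both day 0 samples, and the samples of days 1 to 5 all lay above them. The difference of day 10 from day 0 was -0.39 ± 0.20 (SE, n = 2 per group; limma adjusted p = 0.173), which did not pass, and that of day 10 from day 5 was -0.59 ± 0.20 (adjusted p = 0.0635). The F test over the days did not pass (adjusted p = 0.0652). The slope passed, at -0.054 ± 0.013 log2 per day over 22 arrays (adjusted p = 0.00286), and no longer did with the 3'/5' signal ratio of ACTB as a covariate (-0.040 ± 0.018, adjusted p = 0.104). That ratio, a measure of RNA integrity or of amplification, was 1.285 ± 0.0191 (SD, n = 2) on the A chips of day 0 and 1.67 ± 0.313 on those of day 10, and its part in the results was not tested beyond this fit.

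PSAT1, the aminotransferase of the next step, had a probe set on each chip, both present on all 26 arrays. On the B chip (223062_s_at) the signal was 12350 and 21849 at day 0, 12868 and 13794 on day 5, and 4361 and 4242 on day 10. The last pair was the lowest of all 26 samples. The replicates stood apart early: replicate 2 was 1.62 to 2.34 times replicate 1 on days 0 to 4, and 0.903 to 1.26 times on days 5 to 10. The fall by day 10 was -1.93 ± 0.38 on the log2 scale, or 3.82-fold (n = 2 per group, limma adjusted p = 0.000865). On the A chip (220892_s_at) the signal was 4068 and 7298 at day 0, 3299 and 2905 on day 5, and 1164 and 1369 on day 10. This change of -2.11 ± 0.27, or 4.32-fold (limma adjusted p = 9.11e-06), was the lowest p among the 13 at day 10. The A-chip probe set was called from day 6 onward (-1.08 ± 0.27, adjusted p = 0.00968), and the B-chip one from day 9 (-1.22 ± 0.38, adjusted p = 0.0306). The log2 signals of the 2 probe sets had a Pearson r of 0.963 over the 26 samples, which share RNA. RefSeq lists 15 pseudogenes over 6 members (GLDC, MTHFD1, MTHFD2, PSAT1, PSPH and SHMT1), PSAT1P1 to PSAT1P4 among them. Both PSAT1 probe sets have names ending in _s_at, which mark a possible match to more than 1 transcript. Whether pseudogenes take part in the signals was not tested.

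PSPH, the phosphatase of the last step, gave probe sets that did not go together. The signal of 205048_s_at, present on all 26 arrays, was 1631 and 2159 at day 0 and 1654 and 2054 on day 10. The replicates spanned the same range on both days, and the difference was -0.03 ± 0.28 (n = 2 per group, limma adjusted p = 0.965), with a slope of -0.0058 ± 0.019 log2 per day. Replicate 2 was above replicate 1 on all 11 H1 days, by 1.04 to 1.83 times. The weaker probe set 205194_at, also present on all 26 arrays, was 211 and 480 at day 0 and 202 and 246 on day 10 (-0.51 ± 0.39, adjusted p = 0.392). The remaining one, 244819_x_at on the B chip, was present on only 5 arrays and passed no test. RefSeq lists a pseudogene, PSPHP1, on chromosome 7 like PSPH, and names ending in _s_at or _x_at mark probe sets that may match more than 1 transcript, so PSPH is reported as uncertain. Whether PSPHP1 takes part in these signals was not tested.

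SHMT1 had 2 probe sets of its own, of which 217304_at was present on 1 of 26 arrays and 231701_s_at on none. Their signal over all samples was 15.7 to 98.2 and 8.71 to 116. No level of the cytosolic enzyme can be given from these arrays.

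SHMT2, the mitochondrial hydroxymethyltransferase, had 3 probe sets on the A chip. The brightest, 214096_s_at, was 2587 and 3527 at day 0, 2753 and 1912 on day 5, and 1671 and 1844 on day 10. Both day 10 samples were below both day 0 samples, and the fall was -0.78 ± 0.19 log2, or 1.72-fold (n = 2 per group, limma adjusted p = 0.00611). For 214437_s_at the signal was 658 and 1505 at day 0 and 499 and 409 on day 10, a fall of -1.14 ± 0.28 (adjusted p = 0.00524). The day 0 replicates of this probe set differed 2.29-fold. For 214095_at, present on 24 arrays, it was 430 and 427 at day 0 and 267 and 288 on day 10 (-0.63 ± 0.29, adjusted p = 0.131), and the 3 slopes ran from -0.095 to -0.12 log2 per day, all called. The call for 214096_s_at was lost without replicate 1 of day 10 (adjusted p = 0.0501), and that for 214437_s_at without replicate 2 of day 10 (0.0595) or with only the arrays of these 2 days fitted (0.0513). Both calls were lost without replicate 2 of day 0 (adjusted p = 0.123 for 214096_s_at and 0.187 for 214437_s_at) and with the ACTB ratio as a covariate (0.118 and 0.109).

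GLDC, the glycine decarboxylase, was present on all 26 arrays. Its signal was 3945 and 3152 at day 0, 3399 and 3587 on day 3, 1897 and 2261 on day 6, and 1119 and 1137 on day 10. All samples from day 6 onward lay below all samples of days 0 to 5. The fall by day 10 was -1.64 ± 0.23 log2, or 3.13-fold (n = 2 per group, limma adjusted p = 2.41e-05), with a slope of -0.19 ± 0.015 log2 per day (adjusted p = 6.16e-09). The first called day was day 6 (-0.77 ± 0.23, adjusted p = 0.0306), when the mean was still well above that of day 10. Among 12201 genes, the log2 signal of GLDC over the 26 samples was most like those of DPPA4 (Pearson r = 0.965), a gene of pluripotent cells, and USP44 (r = 0.958), a deubiquitinase gene.

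MTHFD1, the multifunctional cytosolic folate enzyme, was the only member called higher on any day. Its signal was 2292 and 2293 at day 0, 3282 and 3475 on day 1, and 3973 and 4940 on day 2. The day 2 rise of 0.95 ± 0.20 log2, or 1.93-fold (n = 2 per group, limma adjusted p = 0.0106), was the only member call before day 6, and it was lost without replicate 1 or replicate 2 of day 0 or replicate 2 of day 2, which left 0 calls on that day. By day 5 the signal was 3318 and 3257, and by day 10 it was 1172 and 995. The 2 days do not overlap, and the fall from day 5 was -1.61 ± 0.20 (adjusted p = 6.97e-05), against -1.09 ± 0.20 from day 0 (adjusted p = 0.000635). Day 9, with 1364 and 1187, was the first day below day 0 by the test (-0.85 ± 0.20, adjusted p = 0.00591). A second probe set, 239846_at, was present on none of 26 arrays and was not tested.

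MTHFD2, its mitochondrial counterpart, fell without an early rise. The signal of 201761_at was 5129 and 6709 at day 0, 3183 and 4284 on day 5, and 2423 and 1661 on day 10, with no overlap between days 0 and 10. The fall was -1.55 ± 0.23 log2, or 2.92-fold (n = 2 per group, limma adjusted p = 5.70e-05). The signal on day 9 was 2463 and 3473, above that of day 7 (2255 and 2895) in both replicates. The B-chip probe set 234976_x_at was present on 23 arrays and absent on both arrays of day 10. Its signal was 1382 and 2023 at day 0 and 377 and 355 on day 10, measured as -2.19 ± 0.31 log2, or 4.57-fold lower (limma adjusted p = 2.80e-05). Both probe sets were called on every day from 6 to 10. RefSeq lists 7 pseudogenes of MTHFD2, which these probe sets may not separate from the gene.

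Between days 5 and 10, 6 of 13 member probe sets were called lower, against 5.88% of all tested: those of GLDC, MTHFD1, MTHFD2 and PSAT1. The count was 3 without replicate 2 of day 5 and 3 without replicate 2 of day 10. Both day 10 samples lay below both day 0 samples for 10 of the 13 member probe sets (76.9%), against 29.2% of all 21445.

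**Figure D2:**
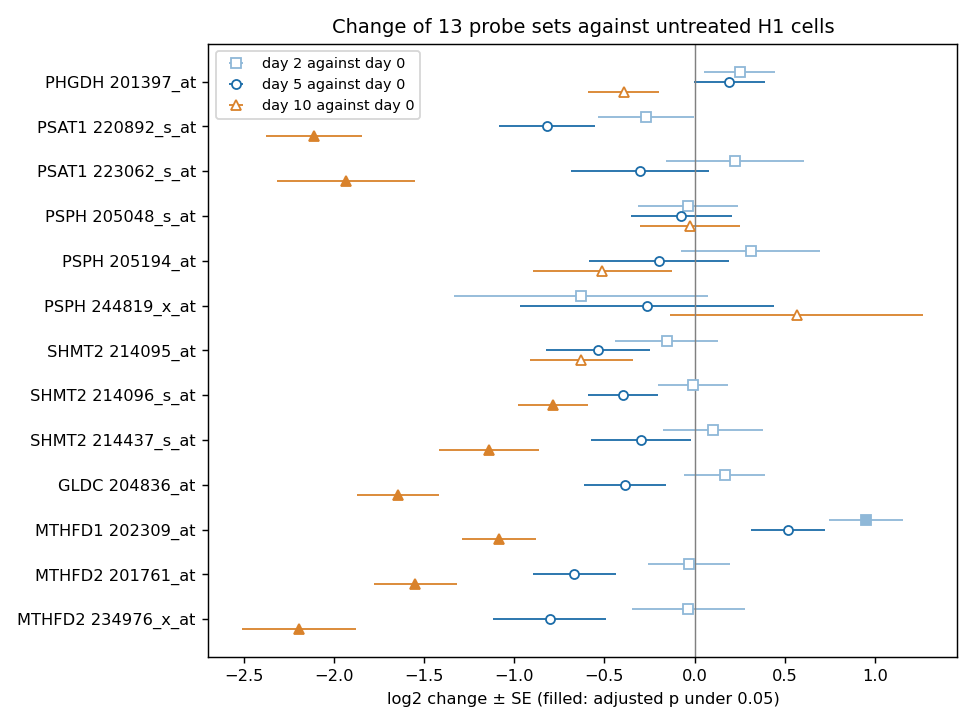
Change of the 13 tested probe sets against untreated H1 cells on days 2, 5 and 10, as the difference of means of log2 signal with its SE. Filled symbols passed an adjusted p of 0.05. On day 2 only MTHFD1 is filled, on day 5 none, and on day 10 the 8 filled symbols all lie left of 0.

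The members' courses were set against PHGDH, the entry to the pathway, by the log2 ratio of signals on the same A array, a comparison chosen after the values were seen. This ratio is unaffected by the scaling of an array, and only its change over days is read. Over the 22 H1 samples the ratio of PSAT1 to PHGDH changed by -0.148 ± 0.0162 log2 per day (permutation p = 1e-05, the smallest that 100000 resamples give, adjusted p = 2e-05 over 6 ratios). The ratio of GLDC changed by -0.132 ± 0.0114 per day and that of MTHFD2 by -0.102 ± 0.0164 (adjusted permutation p = 2e-05 for each). The signals of these 3 enzymes thus fell faster than that of PHGDH. The ratio of MTHFD1 changed by -0.0937 ± 0.0252 per day (adjusted permutation p = 0.00136), with its maximum on day 2. SHMT2 changed by -0.0414 ± 0.0173 per day relative to PHGDH (adjusted permutation p = 0.0261), a call that was lost without either replicate of day 0 or without replicate 2 of day 9, with adjusted p up to 0.103. The ratio of PSPH (205048_s_at) went the other way, by 0.0478 ± 0.0183 per day (adjusted permutation p = 0.0213). This probe set had no called slope of its own (-0.0058 ± 0.019, limma adjusted p = 0.832). Its ratio thus rose because the PHGDH signal fell (-0.054 ± 0.013 per day), a slope whose call was lost with the ACTB covariate. The ratios were not fitted with that covariate, and PSPH remains uncertain.

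**Figure D3:**
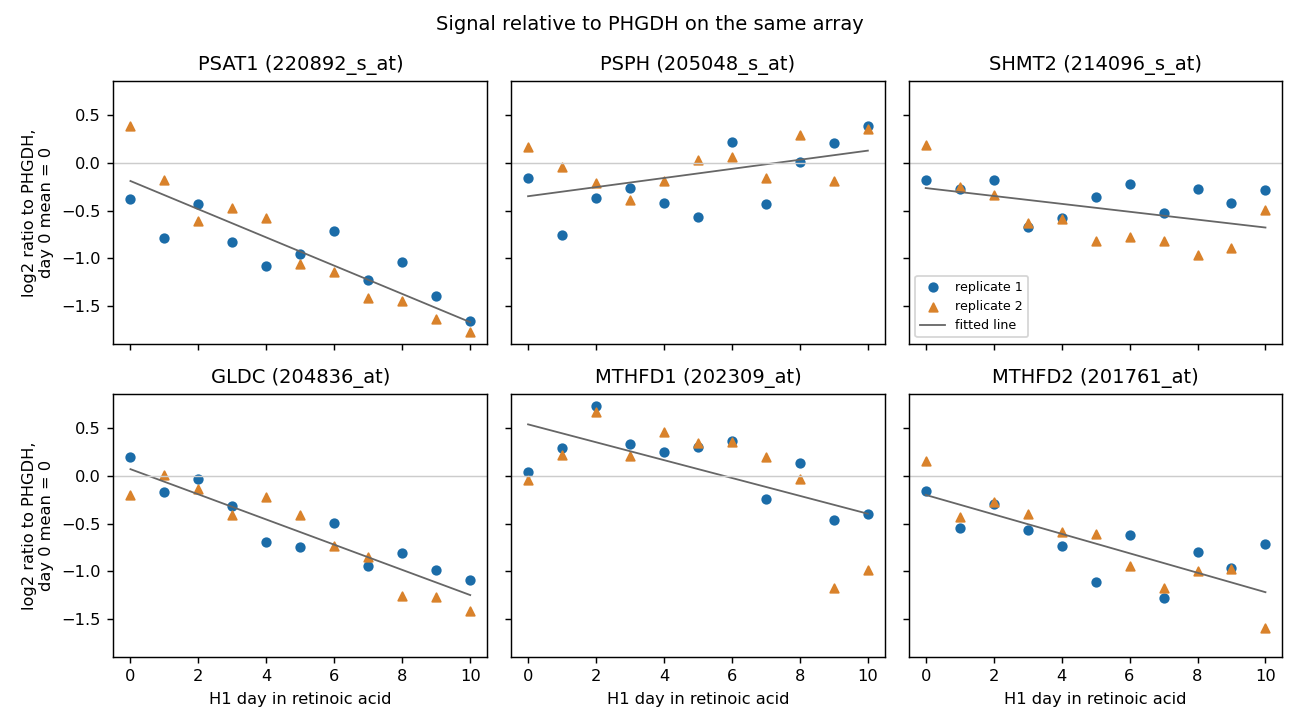
Log2 ratio of the signal of each enzyme to that of PHGDH on the same A-chip array against H1 day, with the day 0 mean set to 0. Points are the 22 H1 samples by replicate, and the line is the least squares fit. PSAT1 ends 1.72 below its day 0 ratio and GLDC 1.25 below, while PSPH (205048_s_at), whose own signal had no called slope, ends 0.367 above.

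Among the undifferentiated lines, whose comparisons with H1 share the day 0 arrays, 2 of 13 member probe sets differed between H9 and H1, against 4.31% of all tested. Between HUES8 and H1 1 differed, against 0.173%, and between HUES8 and H9 1, against 2.39%. The H9 count was 1 without replicate 1 of H9 or of H1 and 4 without replicate 2 of H1, and that of HUES8 against H9 was 0 without either replicate of H9 or without replicate 2 of HUES8. PSPH 205048_s_at was 497 and 501 in H9 and 389 and 317 in HUES8, against 1631 and 2159 in H1 day 0. All 22 H1 samples, treated or not, lay above all 4 samples of the other lines. The difference was -1.91 ± 0.28 log2 for H9, or 3.76-fold lower (n = 2 per group, limma adjusted p = 0.000466), and -2.42 ± 0.28 for HUES8, or 5.35-fold lower (adjusted p = 0.000107). The other A-chip probe set of PSPH, 205194_at, had its lowest mean in H1: 667 and 717 in H9, 421 and 584 in HUES8, and 211 and 480 in H1 day 0. Its differences did not pass (1.12 ± 0.39 for H9, adjusted p = 0.105, and 0.64 ± 0.39 for HUES8, adjusted p = 0.699), though that for H9 did without replicate 2 of H1 day 0 (1.72 ± 0.42, adjusted p = 0.0457). The log2 signals of the 2 PSPH probe sets had a Pearson r of -0.527 over the 26 samples, so no direction is given for the gene.

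SHMT2 was higher in H9. The signal of 214096_s_at was 6243 and 5739 in H9, 3523 and 2888 in HUES8, and 2587 and 3527 in H1 day 0. H9 lay above H1 by 0.99 ± 0.19 log2, or 1.98-fold (n = 2 per group, limma adjusted p = 0.00616), and HUES8 below H9 by -0.91 ± 0.19 (adjusted p = 0.0142), while HUES8 and H1 overlapped. The calls did not hold for every sample left out: that against H1 was lost without replicate 1 of H9 (adjusted p = 0.0664) or replicate 1 of H1 (0.117), and that against HUES8 without either replicate of H9 or replicate 2 of HUES8. The other SHMT2 probe sets were also higher in H9 without passing (0.88 ± 0.28, adjusted p = 0.0728, and 0.69 ± 0.29, adjusted p = 0.184). Of these, 214437_s_at passed without replicate 2 of H1 day 0 (1.48 ± 0.25, adjusted p = 0.00456). PHGDH, at 5129 and 4168 in H9, was 0.51 ± 0.20 above H1 (adjusted p = 0.153), and PSAT1 (223062_s_at), at 26036 and 23687, was 0.60 ± 0.38 above it (adjusted p = 0.429). GLDC was 4599 and 2949 in H9, 3932 and 3245 in HUES8, and 3945 and 3152 in H1, and MTHFD1 was 2196 and 2337, 2626 and 2132, and 2292 and 2293. For these 2 enzymes the 3 lines overlapped. MTHFD2 (201761_at) was 6299 and 4787 in H9, 4765 and 4815 in HUES8 and 5129 and 6709 in H1, and it passed no test between lines.

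**Figure D4:**
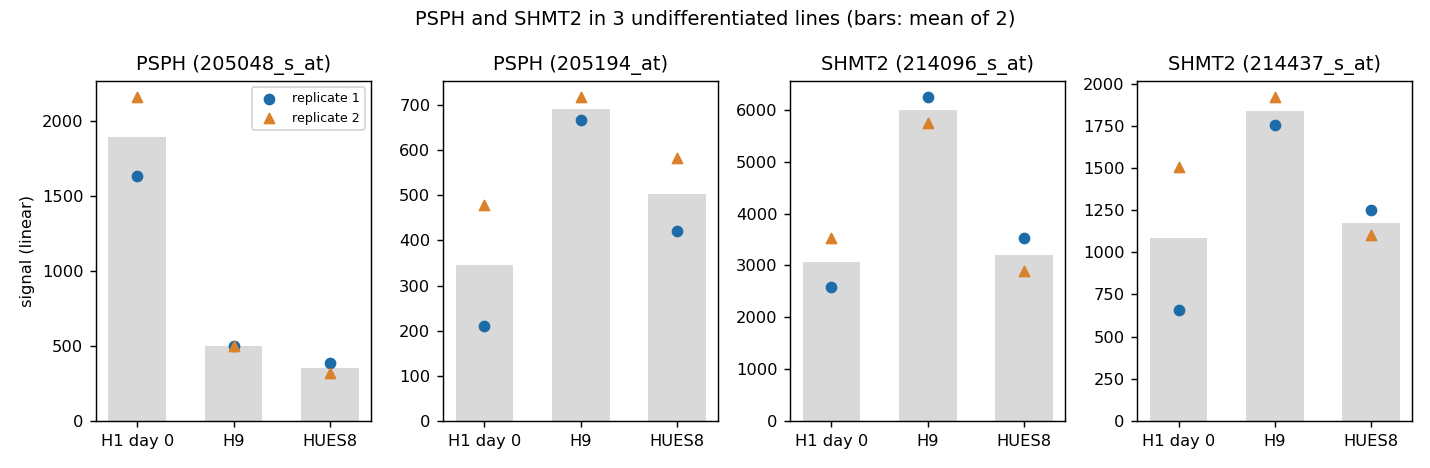
Signal on a linear scale of 2 PSPH and 2 SHMT2 probe sets in the 3 undifferentiated lines. Bars are means of 2 replicates, which are drawn as points. The means of the PSPH probe sets place H1 highest for 205048_s_at and lowest for 205194_at, and both SHMT2 probe sets are highest in H9.

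Genes around these enzymes were counted in lists, with 1 probe set per gene and p-values adjusted over 21445 probe sets. Per gene, 12.0% of 12201 genes were called lower and 12.5% higher at day 10, with a median change of 0.0060. Of the 7 member genes tested, 5 were lower at day 10, with a median of -1.09. In the rest of the folate cycle and glycine cleavage system, 1 of 11 was lower and none higher, with a median of -0.25 (0.01 with arrays centred on control probe sets). That gene was SLC25A32, the mitochondrial folate carrier, with 741 and 640 at day 0 and 372 and 374 on day 10 (-0.88 ± 0.20, limma adjusted p = 0.00277), and it was not called with the ACTB covariate, where the list's median was -0.11. Under quantile normalization 2 of the 11 were lower, and without replicate 1 of day 0 1 was higher. The partners of GLDC in the cleavage system did not pass: GCSH changed by 0.07 ± 0.17, AMT by -0.42 ± 0.26 and DLD by 0.09 ± 0.16.

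The next lists hold genes of the pathways that one-carbon units feed, and of the transport and use of serine and glycine. Not every gene in them, or named from them, uses a one-carbon unit itself. In purine and thymidylate synthesis, 9 of 17 genes were lower and none higher, with a median of -0.48. Between 4 and 7 were called when 1 replicate of either day was left out, with 4 without replicate 2 of day 0 or of day 10 and 5 with the ACTB covariate. The called genes included RRM2, a ribonucleotide reductase subunit (-1.36 ± 0.24, limma adjusted p = 0.000286), PPAT, the first enzyme of purine synthesis (-1.16 ± 0.25, adjusted p = 0.00183), TK1 (-1.03 ± 0.25) and PFAS (-0.99 ± 0.31). In the methionine cycle and transsulfuration, 4 of 20 were lower and 3 higher, with a median of -0.24. SRM, spermidine synthase, fell by 1.64 ± 0.18, AMD1, which makes the propylamine donor of polyamines, by 1.53 ± 0.28, and CBS, which joins serine to homocysteine, by 1.16 ± 0.23, while SUOX, sulfite oxidase, rose (1.14 ± 0.35). The count of higher genes in this list was 1 without replicate 2 of day 0 or of day 10 and with the ACTB covariate. Among transporters and other users of serine and glycine, 1 of 16 was higher, the serine racemase gene SRR (1.40 ± 0.39, adjusted p = 0.0115), and 1 lower, the transporter SLC38A2 (-0.87 ± 0.25). The list had no higher gene without replicate 1 of day 0 or replicate 2 of day 10, no lower one without replicate 2 of day 0 or of day 10, under quantile normalization or with arrays centred on control probe sets, and 3 lower ones with the ACTB covariate.

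The list of ATF4 and its targets in the amino acid response was counted along the course and between lines. At day 10, 12 of 34 were lower and 1 higher, with a median of -0.50, and 3 were lower with the ACTB covariate, 5 without replicate 2 of day 0, 6 without replicate 2 of day 10 and 8 without replicate 1 of day 10. The largest by size were STC2, which rose by 1.66 ± 0.23 (limma adjusted p = 2.80e-05), CHAC1, measured as 3.02-fold lower (adjusted p = 0.0128), EIF4EBP1 (-1.51 ± 0.24) and TARS1 (-1.24 ± 0.20). CHAC1 had a present call on 1 of the 2 arrays of day 0 and on none of day 10. In H9 against H1, 9 of 34 were higher and none lower, against 2.05% of all genes called higher, with a median of 0.66 against 0.0058 over all genes. These 9, named after their values were seen, were CHAC1, TRIB3, STC2, SLC7A1, SESN2, JDP2, CARS1, GARS1 and PYCR1, with differences from 0.66 to 1.60. Without either replicate of H9, or without replicate 1 of H1, 1 of 34 was called, with medians of 0.57, 0.67 and 0.36, and with arrays centred on control probe sets 6 were. ATF4 itself was 10558 and 10509 in H9 and 6022 and 7496 in H1, a difference of 0.65 ± 0.20 that did not pass (adjusted p = 0.0713). In HUES8 against H9, 5 of 34 were lower (0.943% of all genes were called lower), which became 2 without replicate 1 of HUES8 or replicate 2 of H9, 1 without replicate 1 of H9 and 0 without replicate 2 of HUES8. Against H1 limma called 0 of 34 (1 at an unadjusted p under 0.05, 0.172% of all genes called). SHMT2 was most like 2 genes of this list over the 26 samples, CARS1 (r = 0.942) and ASNS (r = 0.926).

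**Figure D5:**
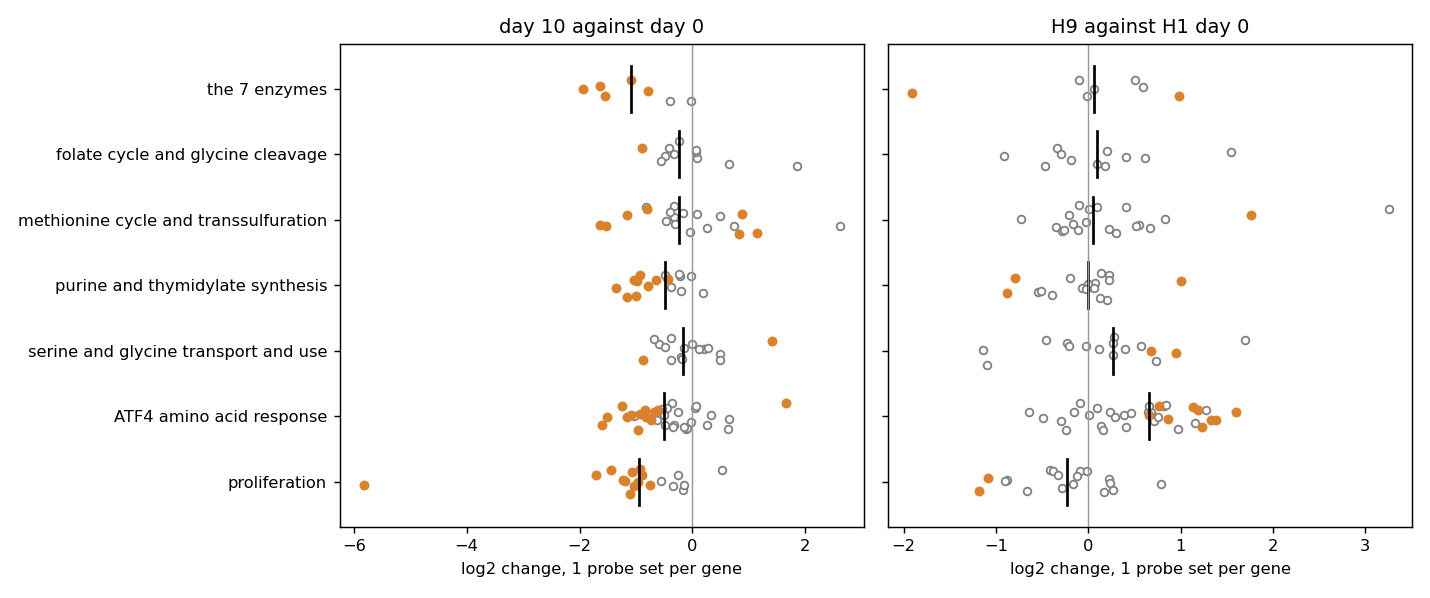
Difference of means of log2 signal for each gene (1 probe set per gene) at day 10 against day 0 and in H9 against H1 day 0, by gene list. Filled points passed an adjusted p of 0.05, and vertical bars are list medians. At day 10 the member median is -1.09, and in H9 the ATF4 list has a median of 0.66.

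Markers of cell division and of other cell types moved over the same days. Of 18 proliferation genes, 12 were lower and none higher at day 10, with a median of -0.95, and their summed signal was 46135 to 46265 at day 0 and 22630 to 31146 on day 10. MYC, a known driver of serine and nucleotide synthesis genes, was 2435 and 2392 at day 0, 316 and 386 on day 5, and 99.1 and 18.2 without a present call on day 10. Markers of simple epithelium summed to 13232 to 13321 at day 0 and 64950 to 66040 on day 10 (6 of 6 higher), and those of trophoblast to 158 to 271 and 4276 to 5071 (4 of 4 tested higher, 3 of them without a present call at day 0, and 2 of 4 with the ACTB covariate). Endoderm markers summed to 497 to 544 at day 0, with 5 of 6 lacking a present call, and 2779 to 4472 on day 10 (3 of 6 higher, none lower). Mesenchyme markers summed to 11758 to 14196 at day 0 and 23046 to 29407 on day 10. Their sum was 19882 to 21485 in H9 and 18393 to 24323 in HUES8, so undifferentiated HUES8 overlapped day 10. At day 10, 3 of 6 were higher than at day 0 and 1 lower. The lower one, named after its values were seen, was the intermediate filament gene VIM, at 9131 and 12368 at day 0 and 2396 and 2218 on day 10. Neural markers summed to 21755 to 24795 and 3801 to 4136, with 3 of 5 tested lower and none higher. Of these 5, 2 lacked a present call at day 0 and 0 lacked it on day 10, and 1 had a called upward slope over the days. The part of all these markers in the fall of the enzymes was not tested.

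The remaining likeness values describe which genes shared a course with each member over the 26 samples, which share days and replicates. PSAT1 was most like AKIRIN1 (r = 0.951) and GLRX3 (r = 0.942), MTHFD1 like FABP5 (r = 0.952) and TUNAR (r = 0.935), and MTHFD2 like FXYD5 (r = 0.935) and RRAS2 (r = 0.924). For PHGDH the closest genes were less close, VHRT (r = 0.865) and SSR3 (r = 0.848). For PSPH they were TMEM254 (r = 0.875) and RUBCNL (r = 0.821). Within the members, r with GLDC was 0.927 for MTHFD2 (201761_at), 0.923 for PSAT1 (220892_s_at), 0.766 for MTHFD1, 0.764 for PHGDH and, for PSPH, -0.267 with 205048_s_at and 0.406 with 205194_at.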

How the data were processed

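RNA was measured on A and B chips in 26 samples. The authors' signal, a linear intensity, came from MAS5 (version not given in the sources used here), per the submitters' processing notes. Arrays had been scaled, since their 2% trimmed means were 500.2 to 500.3. The deposited detection p-value gave the calls: present under 0.05, absent from 0.065, marginal between. The 52 columns of deposited calls were not used here. Probe sets naming several genes (1597) or none (8828) were left out, among them 3 that list a member with other genes, and 21445 present on at least 2 of 26 arrays were tested.

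Log2 signals of each chip were modelled in limma 3.58.1 (R 4.3.3) with 1 mean for each of the 13 groups and an intensity trend (13 residual degrees of freedom), after a test on simulated data. With 2 arrays per group their number limits the precision. Each p-value weighs a difference of group means against the spread between replicates, pooled over the 13 groups of a chip. It takes the replicates as independent, which the labels do not settle. For MTHFD2 (234976_x_at) and CHAC1, absent on day 10, signals below the lowest present signal of their array were to be raised to it. This left the day 10 folds of 4.57 and 3.02 as measured. Members and lists were chosen with earlier results of these data known. The genes named were the member probe sets and up to 4 called genes per list by size of change at day 10. Also named were the 2 non-member genes most like each member, with others identified where named. The fits have no replicate block, since no label says that a number marks a shared batch. The check for pairing had no set threshold. It gave r of -0.0287 to 0.304 over 55 pairs of H1 days, 2 of them below 0, and a block was fitted as an alternative.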

Additional observations from a re-analysis of the deposited data

How the results depend on the processing

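Single member values were compared for the slope, days 1, 5 and 10 against day 0, day 10 against day 5, the lines and the ratios to PHGDH. No called value among these reversed its direction under the alternatives run. Days 2 to 4 and 6 to 9 against day 0 were followed by counts alone, so direction was not checked there. Of the settings tried for single member values, 1741 kept the side of the threshold, 24 lost a call and 19 gained one. Counts of called member probe sets moved by over 1.5 times as follows. With 1 probe set per gene, so that fewer were tested, they were 5 for the F test, 6 for the slope, 3 on days 6 and 7, 4 on day 8, and 5 on days 9 and 10. With the ACTB ratio as a covariate they were 2 on day 6 and 3 on day 7. Day 5 had 2 with quantile normalization, 3 with arrays centred on the control probe sets and 2 with a replicate block, and the replicate block gave 4 for H9 against H1, with PSPH 205194_at (adjusted p = 0.0227) and SHMT2 214437_s_at (0.0480) added. Between days 5 and 10 the block gave 8, with PHGDH (-0.59 ± 0.16, adjusted p = 0.0184) and SHMT2 214437_s_at (0.0378) added, and over all probe sets it raised the F test calls from 4991 to 6532. The deviations of same-numbered replicates had r of -0.0287 to 0.304 over 55 pairs of H1 days, 27 of them over 0.1 and 2 below 0. For all 11 H1 days the r of largest absolute size with another day was positive, a count taken from these same r values. This is a hint of a shared replicate effect from the data, not from the design. Centring on control probe sets moved the median of all probe sets at day 10 from 0.03 to 0.14 and at day 10 against day 5 from 0.06 to 0.27. Leaving out 1 replicate gave 9 to 10 for the F test, 10 to 11 for the slope, 0 to 1 on days 2 and 3, 0 to 2 on day 5, 0 to 5 on day 6, 2 to 5 on day 7, 5 to 8 on day 8, 4 to 9 on day 9, 6 to 8 on day 10, 3 to 6 between days 5 and 10, 1 to 4 for H9 against H1, 1 for HUES8 against H1 and 0 to 1 for HUES8 against H9. Over all probe sets, day 10 calls numbered 2488 with the ACTB covariate and 4660 without, and H9 against H1 gave 1725 with the replicate block, 2201 from the arrays of those groups alone and 924 in the reported fit. The slopes of ratios to PHGDH kept their sign in 25 alternatives each, chosen after seeing the data, and 3 of those for SHMT2 lost the call. With 2 arrays per group, the precision for changes near the replicate spread is limited.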
